A study of Homo sapiens with 183 samples.

Results

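Clade B serpins are the branch of the serpin superfamily of protease inhibitors that mostly lacks a secretion signal and works inside the cell. The 10 members described here, SERPINB1, SERPINB2, SERPINB3, SERPINB4, SERPINB5, SERPINB6, SERPINB7, SERPINB8, SERPINB9 and SERPINB13, were chosen by name among the 19875 gene names that each of the 8 deposited expression tables lists, and all 10 were found in all 8 tables. The study asked how the transcription factor KLF5 and the paired AAA+ ATPases RUVBL1 and RUVBL2 maintain lineage identity in pancreatic ductal adenocarcinoma (PDAC), and it used the protein of SERPINB5 as the read-out of KLF5 activity in its screens. Bulk poly(A) RNA-seq was done on 183 libraries of 9 human cancer cell lines. Levels are in TPM, a length-corrected share of the RNA of a library. A bulk library cannot tell fewer cells with a transcript apart from less of it per cell.

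Knockout libraries were collected 5 days after delivery of guide RNAs (sgRNAs) to cells that stably express Cas9. The negative control, sgRosa, targets the ROSA26 locus. By the study's text, KLF5, RUVBL1, RUVBL2, SERPINB5 and ROSA26 were each targeted with more than a single guide, and the labels do not say which library carries which. AsPC-1 had 2 sgRosa and 6 sgKLF5 libraries in experiment 1, 4 each of sgRosa, sgRUVBL1 and sgSERPINB5 in experiment 2, 4 each of sgRosa, sgKLF5, sgRUVBL1 and sgRUVBL2 with 2 each of sgCDK1 and sgRpa3 in experiment 3, and 4 sgRosa and 4 sgCHD4 in a separate experiment. SUIT-2 had 4 sgRosa and 4 sgKLF5 libraries. CFPAC-1 had 4 sgRosa, 3 sgKLF5, 4 sgRUVBL1 and 2 each of sgRUVBL2, sgCDK1 and sgRpa3. T3M-4 and BxPC-3 each had 2 sgRosa, 4 sgKLF5 and 2 sgRpa3 libraries in experiment 1. In experiment 2, T3M-4 had 4 sgRosa, 4 sgKLF5, 3 sgRUVBL1, 4 sgRUVBL2 and 2 each of sgCDK1 and sgRpa3, and BxPC-3 had the same numbers except for 4 sgRUVBL1 and 3 sgRUVBL2. CDK1 and RPA3 are genes that dividing cells need, and CHD4 is the ATPase of the NuRD chromatin remodeller.

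Compound libraries were collected after 24 h in CB-6644, an allosteric inhibitor of the RUVBL1/2 ATPase, or in its solvent DMSO. AsPC-1 and T3M-4 carried a lentiviral empty vector (EV) or the cDNA of RUVBL1_A62T or RUVBL2_dF109, the variants the study used to make RUVBL1/2 resistant to the compound, with 3 CB-6644 libraries and 1 DMSO library per genotype. T84 (colorectal cancer), A375 (melanoma), H1048 (small cell lung cancer) and RH30 (alveolar rhabdomyosarcoma) were parental lines with 4 CB-6644 and 4 DMSO libraries each. The study treats AsPC-1 and SUIT-2 as classical and T3M-4 and BxPC-3 as basal-like PDAC lines.

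A serpin presents an exposed loop that a protease cuts as if it were a substrate, and the cleaved serpin then folds over and traps the protease. Inside epithelial and immune cells the clade B members are thought to hold in check proteases that leak from granules and lysosomes. Among these are neutrophil elastase and cathepsin G (SERPINB1, SERPINB6), cysteine cathepsins (SERPINB3, SERPINB13) and granzyme B (SERPINB9). The known targets of SERPINB2 are the plasminogen activators. Several are known as markers of stratified and squamous epithelium, and SERPINB5, or maspin, belongs to the family by sequence but is not an inhibitor.

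In the RefSeq annotation of GRCh38.p14 the members lie in 2 groups. SERPINB5, SERPINB13, SERPINB4, SERPINB3, SERPINB7, SERPINB2 and SERPINB8, in this order, span 542.8 kb of chromosome 18 from 63476958 to 64019779, and SERPINB1, SERPINB9 and SERPINB6 span 139.5 kb of chromosome 6 from 2832332 to 2971793. All 10 members matched a promoter entry. The 250 bases upstream of the annotated start are printed for 5 of them: SERPINB5 and SERPINB2, which fell in every KLF5 knockout in which they were tested, SERPINB1 from the chromosome 6 group, and the pair SERPINB3 and SERPINB4, whose transcripts resemble each other most. Each is written 5′ to 3′ on the strand of its gene, at chr18:63476708-63476957 (plus strand), chr18:63887455-63887704 (plus strand), chr6:2841864-2842113 (minus strand), chr18:63661894-63662143 (minus strand) and chr18:63644257-63644506 (minus strand). Capitals mark matches on either strand to CCNCNCCC, a short form of the GC-rich box that KLF proteins are known to bind, or to CACCC, which can overlap it.
SERPINB5: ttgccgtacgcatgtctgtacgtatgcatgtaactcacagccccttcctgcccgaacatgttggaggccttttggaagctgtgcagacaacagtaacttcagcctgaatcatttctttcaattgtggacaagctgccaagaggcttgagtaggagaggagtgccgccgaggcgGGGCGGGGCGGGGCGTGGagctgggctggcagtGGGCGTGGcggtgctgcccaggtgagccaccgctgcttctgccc
SERPINB2: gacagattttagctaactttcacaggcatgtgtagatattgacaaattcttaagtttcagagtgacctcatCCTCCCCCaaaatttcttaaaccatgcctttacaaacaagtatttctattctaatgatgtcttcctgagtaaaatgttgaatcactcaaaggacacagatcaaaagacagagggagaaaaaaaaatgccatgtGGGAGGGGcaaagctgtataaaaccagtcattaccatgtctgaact
SERPINB1: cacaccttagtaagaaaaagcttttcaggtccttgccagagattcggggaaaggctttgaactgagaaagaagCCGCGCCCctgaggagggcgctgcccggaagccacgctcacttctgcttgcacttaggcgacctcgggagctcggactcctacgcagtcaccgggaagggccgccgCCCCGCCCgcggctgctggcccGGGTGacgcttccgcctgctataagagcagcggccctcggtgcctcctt
SERPINB3: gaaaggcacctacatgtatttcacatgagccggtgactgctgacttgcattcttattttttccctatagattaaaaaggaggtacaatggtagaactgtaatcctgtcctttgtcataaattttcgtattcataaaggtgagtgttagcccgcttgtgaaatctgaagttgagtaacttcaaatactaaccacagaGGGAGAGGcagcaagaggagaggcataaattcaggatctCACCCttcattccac
SERPINB4: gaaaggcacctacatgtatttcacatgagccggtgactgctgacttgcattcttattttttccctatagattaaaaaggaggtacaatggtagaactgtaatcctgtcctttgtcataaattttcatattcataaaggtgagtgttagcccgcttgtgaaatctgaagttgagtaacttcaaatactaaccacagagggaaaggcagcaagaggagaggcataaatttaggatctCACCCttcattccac
SERPINB5 held 4 matches to CCNCNCCC and no CACCC. SERPINB2 and SERPINB1 each held 2 matches to CCNCNCCC. CCNCNCCC was present in 8 of the 10 members and in 53.4% of all 35116 promoter windows of this length, CACCC in 7 members and 54.7% of windows, and the AP-1 form TGANTCA in 4 members (SERPINB2, SERPINB5, SERPINB8 and SERPINB13) and 6.57% of windows. These are counts of letters and do not show binding. The SERPINB3 and SERPINB4 windows were identical at 247 of 250 bases (98.8%).

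The likeness extends to the transcripts. SERPINB3 and SERPINB4 (squamous cell carcinoma antigens 1 and 2) share 690 of the 1677 windows of 31 bases in their reference transcripts (41.1%), and no other pair of members shares any. Only 32.8% of the SERPINB3 windows occurred in no other gene, against 58.9% for SERPINB4, 72.3% for SERPINB2, 87.8% for SERPINB8 and 91.9% or more for the other 6. The division of reads between SERPINB3 and SERPINB4 is therefore uncertain, and their sum is given beside them.

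Depth is not recorded in TPM, so precision is read from replicates. The libraries held 11292 to 14024 genes at 1 TPM or more, and none of the 183 was a copy of another. The median library correlated with its own group at a mean r of 0.9962. The lowest was sgKLF5 replicate 2 of T3M-4 experiment 1, at 0.9591. Of 177 libraries in groups that could be compared, 20 resembled another group more than their own, most of them sgRUVBL2 libraries near sgRUVBL1, sgRpa3 or sgSERPINB5 libraries near sgRosa, or libraries of CFPAC-1, which held 6. All 4 CFPAC-1 libraries labelled sgRosa were among those 6, replicate 2 being nearest to sgKLF5 and replicate 4 to sgRUVBL2. CDK1 mRNA in CFPAC-1 was lower in the libraries labelled sgRpa3 (log2 fold change -1.31, SE 0.092, adjusted p = 1.20e-06) and not in those labelled sgCDK1 (-0.10, SE 0.092, adjusted p = 0.678), so those libraries are named by their labels only. RUVBL1 and RUVBL2 mRNA fell by 1.14 to 1.87 on the log2 scale in all 9 knockouts aimed at them. KLF5 mRNA fell after sgKLF5 only in CFPAC-1 (-0.41, SE 0.089, adjusted p = 0.00852) and was higher in AsPC-1 experiment 1 (0.53, SE 0.17, adjusted p = 0.0462) and T3M-4 experiment 2 (0.78, SE 0.11, adjusted p = 1.73e-05), and it does not check the label, because a frameshift need not lower the transcript. Marker genes bore out the line labels in part. TP63 was at 66.6 to 111 TPM in the T3M-4 and BxPC-3 controls and at 1.74 TPM or less elsewhere. The classical marker HNF4A had sgRosa means of 43.7 to 70.2 TPM for AsPC-1, 17.6 TPM for SUIT-2 and at most 0.386 TPM for the basal-like lines. GATA6, also a classical marker, did not separate them. Its sgRosa means were 28.2 and 40.7 TPM for BxPC-3, beside 23.3 to 36.1 TPM for AsPC-1 and 10.4 TPM for SUIT-2. For T3M-4 they were 7.62 and 9.90 TPM. A375 had SOX10 at 231 to 238 TPM but TYR listed at 0 and MLANA at 1.06 to 1.41 TPM. H1048 had POU2F3 at 452 to 501 TPM but TRPM5 at 0.182 TPM or less. The leukocyte gene PTPRC reached 5.30 to 18.3 TPM in the T3M-4 controls and stayed at 3.53 TPM or less in the other lines, and its part in the member levels was not tested.

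In the control libraries the members were most abundant in the basal-like lines. Summed over the 10 genes, mean control levels came to 1929 TPM in BxPC-3 and 1815 TPM in T3M-4, against 254 to 521 TPM in the other PDAC lines and T84, and 65.3 to 175 TPM in the other 3 lines. The tables were normalized separately, so levels between lines are described without a test. Where a line had several experiments, its mean and SD pool them, so that SD is not the spread of replicates. For AsPC-1 and T3M-4 the pool also holds DMSO libraries of EV and variant cells, from a separately normalized table. SERPINB1 in T3M-4 controls ran from 482 to 1158 TPM, with the DMSO libraries at 841 TPM or more. SERPINB2 ran from 108 to 951 TPM there.

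SERPINB5 (maspin) was at 282 ± 24.3 TPM (SD, n = 6) in BxPC-3, 165 ± 69.7 TPM (SD, n = 9) in T3M-4, 150.0 ± 60.9 TPM (SD, n = 4) in CFPAC-1, 147 ± 30.9 TPM (SD, n = 17) in AsPC-1 and 102 ± 7.63 TPM (SD, n = 4) in T84. The ranges of each of these neighbours overlapped. It was lower without overlap in SUIT-2 at 60.9 ± 14.9 TPM (SD, n = 4), then in H1048 at 5.63 ± 0.776 TPM (SD, n = 4) and A375 at 0.861 ± 0.127 TPM (SD, n = 4), and close to 0 in RH30. SERPINB2, or plasminogen activator inhibitor 2, was the most abundant member in BxPC-3: 1211 ± 219 TPM (SD, n = 6) in BxPC-3 and 454 ± 278 TPM (SD, n = 9) in T3M-4, with overlapping ranges, then 30.4 ± 2.88 TPM (SD, n = 4) in T84. All other lines had 1.41 TPM or less on average. SERPINB1, an inhibitor of neutrophil elastase and proteinase 3, was at 719 ± 229.8 TPM (SD, n = 9) in T3M-4 and 255 ± 13.4 TPM (SD, n = 4) in T84, and at 68.0 to 129 TPM in the other PDAC lines.

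SERPINB13, a keratinocyte inhibitor of cathepsins L and K also called hurpin, had the narrowest distribution: 102 ± 24.4 TPM (SD, n = 9) in T3M-4 and 45.4 ± 14.9 TPM (SD, n = 6) in BxPC-3 without overlap, and 0.117 TPM or less in the other 7 lines. SERPINB3 followed the same lines, at 98.4 ± 64.6 TPM (SD, n = 9) and 29.7 ± 12.2 TPM (SD, n = 6). The line means of SERPINB4 were all under 10 TPM, the highest being 6.89 TPM in T3M-4. The highest single control library of that line exceeded 10 TPM. SERPINB7, or megsin, a gene whose loss causes a thickening of palm and sole skin, was at 36.05 ± 11.6 TPM (SD, n = 9) in T3M-4, 24.5 ± 3.62 TPM (SD, n = 6) in BxPC-3 and, outside epithelium, 19.8 ± 2.07 TPM (SD, n = 4) in A375. SERPINB9, the granzyme B inhibitor of cytotoxic lymphocytes and their targets, ran from 69.8 TPM in T3M-4 to 18.4 TPM in AsPC-1 among the PDAC lines and was at 0.604 TPM or less in A375, H1048 and RH30. SERPINB6, a widely expressed inhibitor of cathepsin G, was above 10 TPM in all 9 lines (48.9 TPM in RH30 to 205 TPM in CFPAC-1), and SERPINB8, a furin inhibitor, ran from 8.28 TPM in AsPC-1 to 36.2 TPM in A375.

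**Figure D1:**
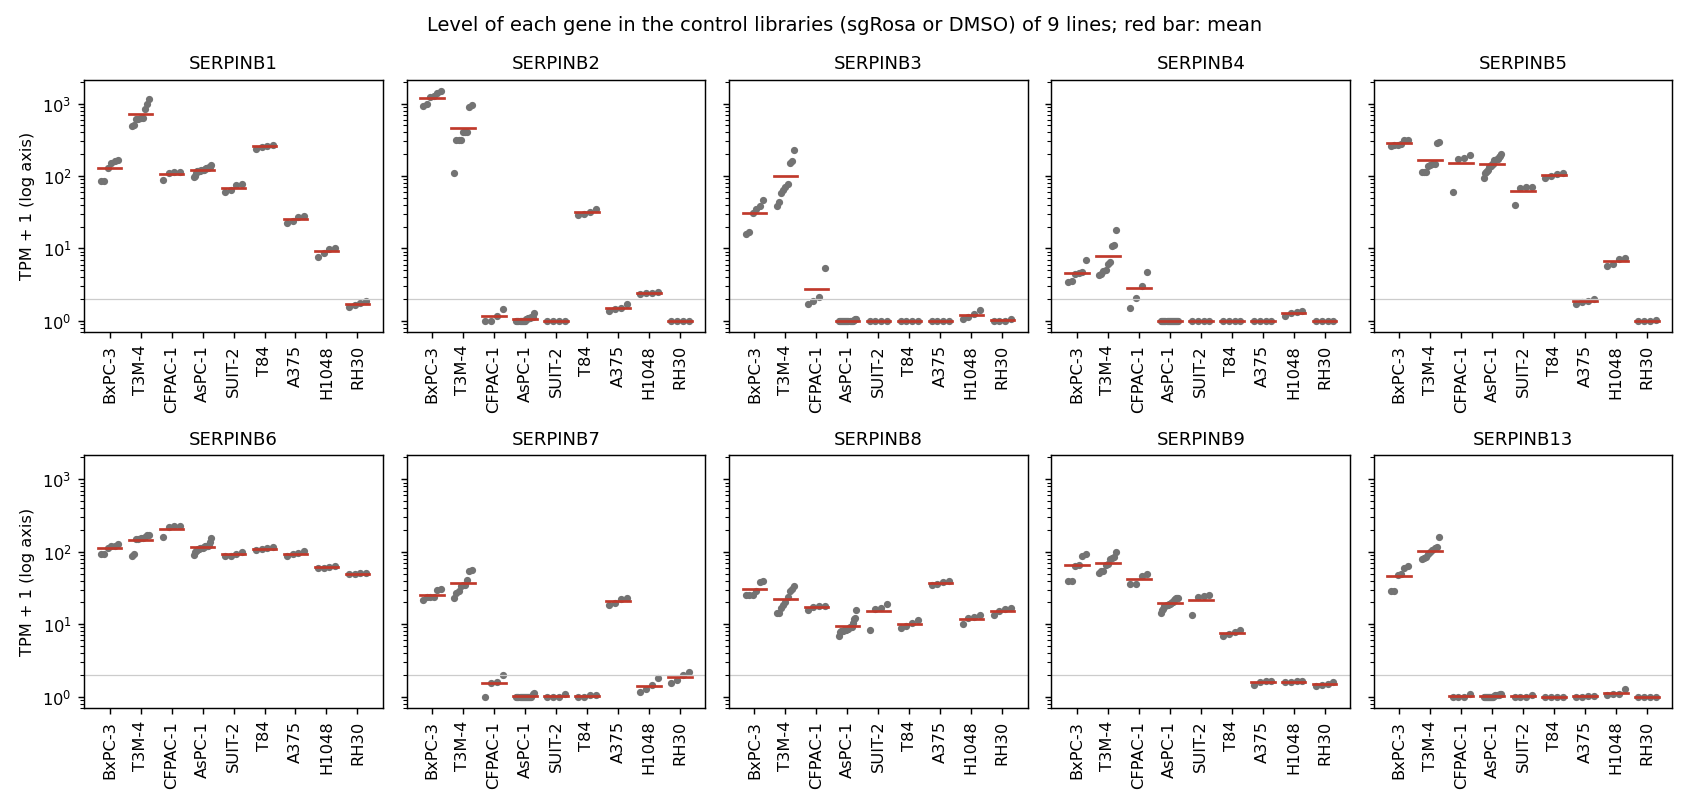
Level of each member in the control libraries of 9 lines, as TPM + 1 on a log axis, with a grey point for each sgRosa or DMSO library and a red bar for the mean of the line. SERPINB2, SERPINB3, SERPINB7 and SERPINB13 stand high in BxPC-3 and T3M-4 and low in the other PDAC lines. The line means of SERPINB6 lie between 48.9 and 205 TPM across the 9 lines.

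Across the 9 line means of 12230 genes, on log2(TPM + 1), the genes whose pattern was most like that of SERPINB5 were PTK2B (Pearson r 0.9776), RASSF6 (0.9723) and MST1R (0.9649). For SERPINB2 they were IL1RN (0.9778), CD177 (0.9763) and TXN (0.9738), and for SERPINB1 they were TMEM184A (0.9579), AREG (0.9447) and IL18 (0.9362). These are descriptions over 9 points that share tables and controls.

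Loss of KLF5 lowered SERPINB5 in all 8 comparisons made in 5 PDAC lines, and in both T3M-4 experiments and BxPC-3 experiment 1 it lowered most of the family. Each knockout was compared with the sgRosa libraries of the same line and experiment by limma on log2(TPM + 1), among genes averaging 1 TPM or more, and a gene is called when its Benjamini-Hochberg adjusted p over all genes tested is under 0.05. Fold changes are on this log2(TPM + 1) scale, which understates changes of low genes. Separate cultures are not recorded for the replicates, so p-values measure the spread between these libraries. Of 62 member comparisons, 36 were called lower and 2 higher, or 33 and 5 after rescaling each library by median of ratios.

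In AsPC-1 and SUIT-2, the classical lines, and in CFPAC-1 only 5 or 7 members were tested, and the share called lower was above that of all genes in each of these 4 comparisons. AsPC-1 experiment 1 had 2 of 5 called lower, beside 25.9% of all genes called in either direction and 8.81% called lower. Experiment 3 had 3 of 5 lower (27.8% of genes called, 12.3% lower), and SUIT-2 had 2 of 5 lower (3.94% and 1%). CFPAC-1 had 4 of 7 lower (16.2% and 13%).

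All 10 members were tested in the basal-like lines. In T3M-4, 7 of 10 were lower in experiment 1, where 5.72% of genes were called and 2.46% were lower. Experiment 2 had 7 lower and 1 higher (34.6% called, 11.2% lower). In BxPC-3, 8 of 10 were lower in experiment 1 (16.2% called, 8.1% lower), and experiment 2 had 3 lower and 1 higher (34.6% called, 13.6% lower). The median log2 fold change of the tested members was -1.78 in T3M-4 experiment 1, where that of all genes was -0.22, and -1.21 against -0.023 in BxPC-3 experiment 1. In the other 6 comparisons it lay between -0.43 and -0.064, and that of all genes between -0.11 and 0.18.

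SERPINB5, the maspin gene whose protein the screens read, fell most in T3M-4 experiment 1 and in AsPC-1. AsPC-1 experiment 1 had 170.3 and 146 TPM in sgRosa and 25.2 to 39.4 (median 28.7) TPM in the 6 sgKLF5 libraries, a log2 fold change of -2.39 (SE 0.15, adjusted p = 1.47e-06). In experiment 3 the sgRosa libraries had 121, 113, 109 and 92.5 TPM and the sgKLF5 libraries 20.8, 25.3, 39.7 and 48.9 TPM (-1.74, SE 0.18, adjusted p = 4.38e-07). The groups did not overlap in either experiment. SUIT-2 went from 38.6, 69.4, 68.5 and 67.02 TPM in sgRosa to 23.1, 24.9, 23.4 and 20.3 TPM in sgKLF5 (-1.34, SE 0.21, adjusted p = 0.00854), again without overlap, although sgRosa replicate 1 was well below the other 3. Without that library the SUIT-2 difference was -1.54 (adjusted p = 0.000318).

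In CFPAC-1 the SERPINB5 groups overlapped. The libraries labelled sgRosa had 193, 59.8, 179 and 169 TPM and those labelled sgKLF5 57.6, 69.3 and 66.04 TPM (-1.08, SE 0.27, adjusted p = 0.0151), and sgRosa replicate 2, which resembled sgKLF5 across all genes, lay within the sgKLF5 range. This call was lost without any 1 of sgKLF5 replicate 1 and sgRosa replicates 1 and 3 (adjusted p 0.0557 to 0.067). Against sgRosa replicates 1 and 3 alone, a choice made after the data were seen, the difference was -1.52 (adjusted p = 7.08e-08), and with the libraries of these groups alone in the fit it was not called (adjusted p = 0.0716).

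SERPINB5 also fell in both experiments of each basal-like line. T3M-4 experiment 1 had 280.2 and 289 TPM in sgRosa and 52.2, 17.96, 62.3 and 64.3 TPM in sgKLF5 (-2.66, SE 0.47, adjusted p = 0.0179), and experiment 2 had 138, 141, 113 and 114 TPM against 59.02, 62.97, 65.2 and 56.1 TPM (-1.04, SE 0.077, adjusted p = 7.94e-09). Replicate 2 of experiment 1, the library that correlated least with its group, was the lowest. BxPC-3 had 313 and 312 TPM in sgRosa and 129.8, 121, 109 and 107 TPM in sgKLF5 in experiment 1 (-1.42, SE 0.11, adjusted p = 1.70e-05), then 276, 256, 269 and 267 TPM against 169.5, 183, 223 and 202 TPM in experiment 2 (-0.46, SE 0.076, adjusted p = 0.000133). No group overlapped its control in these 4 comparisons. The T3M-4 experiment 1 call was lost without any 1 of sgKLF5 replicate 1 and sgRosa replicates 1 and 2 (adjusted p 0.0562 to 0.201). Without replicate 2 all 7 members called in that experiment kept their call, with SERPINB5 at -2.24 (adjusted p = 9.07e-07).

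**Figure D2:**
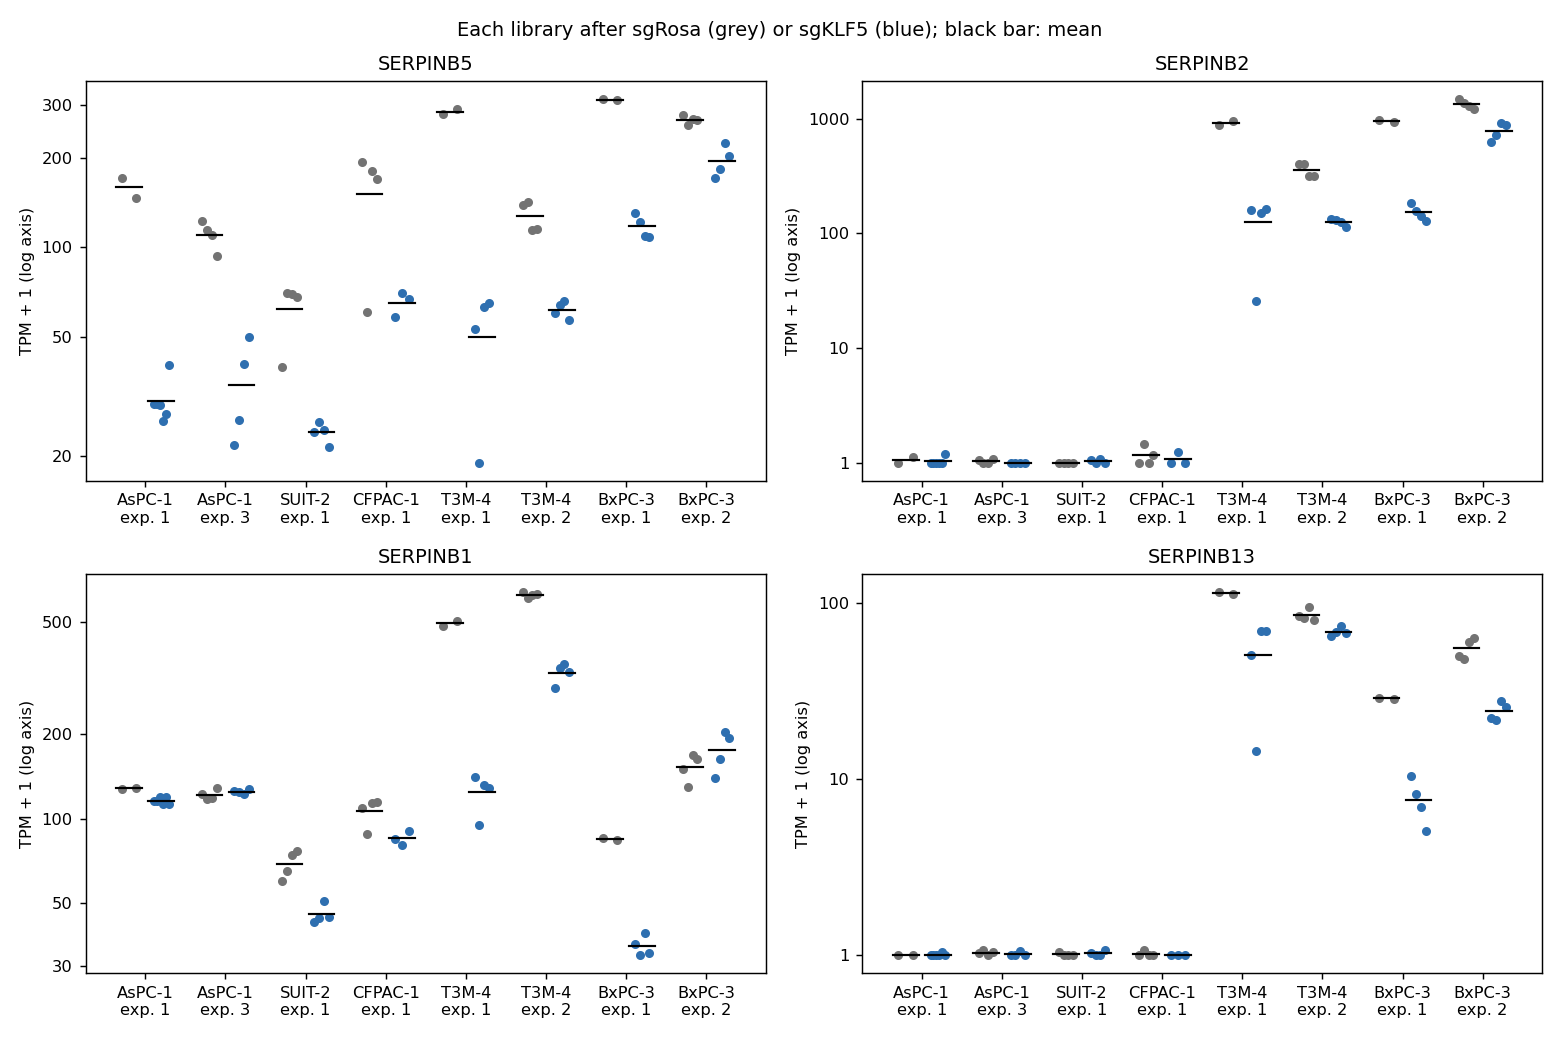
SERPINB5, SERPINB2, SERPINB1 and SERPINB13 in each library of the 8 KLF5 knockout comparisons, as TPM + 1 on a log axis (grey sgRosa, blue sgKLF5, black bar the group mean). SERPINB5 means are lower after sgKLF5 in all 8 comparisons, the points of SERPINB2 and SERPINB13 lie near 0 TPM in AsPC-1, SUIT-2 and CFPAC-1, and SERPINB1 is lower in both T3M-4 experiments but not in BxPC-3 experiment 2.

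SERPINB2, the inhibitor of urokinase and tissue plasminogen activator, fell in all 4 comparisons that tested it, all in the basal-like lines. BxPC-3 experiment 1 had 977 and 929 TPM in sgRosa and 185, 156, 139.7 and 128 TPM in sgKLF5 (log2 fold change -2.65, SE 0.13, adjusted p = 1.27e-06). In experiment 2 the same line had 1481, 1379, 1280.4 and 1221 TPM against 632, 726, 912 and 876 TPM (-0.78, SE 0.12, adjusted p = 6.15e-05). T3M-4 experiment 2 had 399, 403, 315 and 313 TPM against 133, 129, 125 and 114 TPM (-1.495, SE 0.086, adjusted p = 3.84e-10). The groups did not overlap. T3M-4 experiment 1 had 884 and 951 TPM in sgRosa and 159, 24.6, 149 and 162 TPM in sgKLF5 (-3.198, SE 0.71, adjusted p = 0.0403), again without overlap, with replicate 2 far below the other 3, and this call was lost without any 1 of sgKLF5 replicates 1, 3 and 4 and sgRosa replicates 1 and 2 (adjusted p 0.0544 to 0.313). Without replicate 2 it was -2.54 (adjusted p = 8.69e-08).

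SERPINB1, the elastase inhibitor of the chromosome 6 group, fell in 5 of 8 comparisons. T3M-4 had 482 and 504 TPM in sgRosa and 139.7, 94.1, 130.2 and 127 TPM in sgKLF5 in experiment 1 (-2.01, SE 0.18, adjusted p = 0.00115), and 638, 606, 621 and 627 against 291, 341, 352 and 331 TPM in experiment 2 (-0.92, SE 0.067, adjusted p = 6.91e-09). BxPC-3 experiment 1 had 84.3 and 83.1 against 34.9, 31.7, 38.4 and 32.4 TPM (-1.27, SE 0.10, adjusted p = 1.74e-05). In these 3 comparisons the levels did not overlap and every omission of 1 library kept the call. BxPC-3 experiment 2 had 149.6, 128, 167 and 162 TPM in sgRosa and 138, 162, 203 and 192 TPM in sgKLF5, which overlapped (0.19, SE 0.11, adjusted p = 0.216). SUIT-2 went from 58.9, 64.02, 73.03 and 75.9 to 42.1, 43.3, 49.96 and 43.6 TPM (-0.59, SE 0.14, adjusted p = 0.0472), without overlap, but the call was lost without any 1 of sgKLF5 replicates 1, 2, 3 and 4 and sgRosa replicates 2, 3 and 4 (adjusted p 0.0924 to 0.196). CFPAC-1 gave -0.31 (SE 0.083, adjusted p = 0.0205), lost without any 1 of sgKLF5 replicates 1 and 2 and sgRosa replicates 1 and 3 (adjusted p 0.0633 to 0.0899). After median-of-ratios scaling it was -0.18 (adjusted p = 0.194). AsPC-1 gave -0.14 and 0.035, neither called.

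SERPINB13, the keratinocyte cathepsin inhibitor, was tested in the basal-like lines only and fell in 3 of 4 comparisons. In BxPC-3 it went from 27.96 and 27.5 TPM in sgRosa to 9.44, 7.19, 5.91 and 4.05 TPM in sgKLF5 in experiment 1 (-1.96, SE 0.26, adjusted p = 0.000602) and from 48.96, 46.8, 58.9 and 62.4 to 21.3, 20.7, 26.6 and 24.5 TPM in experiment 2 (-1.18, SE 0.16, adjusted p = 1.47e-05). Levels did not overlap in either. T3M-4 experiment 2 had 82.9, 80.9, 93.2 and 78.5 against 64.3, 67.7, 72.8 and 66.2 TPM, a small difference without overlap (-0.30, SE 0.080, adjusted p = 0.00682). Experiment 1 had 114 and 111 against 49.8, 13.4, 67.97 and 68.4 TPM and was not called (adjusted p = 0.191), although every sgKLF5 library was below both sgRosa libraries. In simulated data for this comparison, 0% of 200 genes given a log2 change of 1 were recovered, against 97% in T3M-4 experiment 2. The simulated spread was estimated with sgKLF5 replicate 2 included, and the part of that library in the missing call was not tested.

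SERPINB3 and SERPINB4, the squamous cell carcinoma antigens, differed between experiments. SERPINB3 had 69.6 and 77.2 TPM in sgRosa and 11.1, 4.28, 10.03 and 9.07 TPM in sgKLF5 in T3M-4 experiment 1 (-3.02, SE 0.34, adjusted p = 0.00286), and 43.3, 37.9, 57.8 and 63.5 against 38.9, 39.2, 44.5 and 36.2 TPM, overlapping, in experiment 2 (-0.32, SE 0.17, adjusted p = 0.157). BxPC-3 experiment 1 had 46.04 and 37.9 against 25.7, 16.5, 26.1 and 14.6 TPM (-1.02, SE 0.23, adjusted p = 0.014). The groups did not overlap in either experiment 1. The calls were lost without any 1 of sgRosa replicates 1 and 2 (adjusted p 0.0533 to 0.0638) in T3M-4 and without any 1 of sgRosa replicates 1 and 2 (adjusted p 0.0629 to 0.163) in BxPC-3. SERPINB4 had 3.46 and 3.26 against 0.947, 0.556, 1.38 and 1.31 TPM in T3M-4 experiment 1 (-1.11, SE 0.23, adjusted p = 0.0312, lost without any 1 of sgKLF5 replicates 1, 3 and 4 and sgRosa replicates 1 and 2, adjusted p 0.0571 to 0.282) and 4.04, 3.85, 5.098 and 5.49 against 4.97, 8.39, 9.97 and 8.04 TPM in experiment 2, where it was higher (0.63, SE 0.19, adjusted p = 0.0171, lost without any 1 of sgKLF5 replicate 3 and sgRosa replicate 2, adjusted p 0.0505 to 0.066). Their sum gave -2.93 (SE 0.34, adjusted p = 0.00306) and -0.19 (SE 0.17, adjusted p = 0.41) in T3M-4, -0.95 (SE 0.23, adjusted p = 0.0185) and 0.48 (SE 0.21, adjusted p = 0.0852) in BxPC-3, and 1.05 (SE 0.32, adjusted p = 0.0364) in CFPAC-1, where SERPINB3 and SERPINB4 alone gave 0.89 (SE 0.31, adjusted p = 0.0603) and 0.86 (SE 0.30, adjusted p = 0.0563).

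SERPINB9, the granzyme B inhibitor, fell in 4 of 8 comparisons. BxPC-3 experiment 1 had 37.99 and 38.5 TPM in sgRosa and 20.5, 18.9, 11.9 and 14.4 TPM in sgKLF5 (-1.198, SE 0.19, adjusted p = 0.002), and experiment 2 gave -0.33 (SE 0.18, adjusted p = 0.161). T3M-4 experiment 2 had 78.5, 82.8, 98.2 and 67.6 against 49.4, 55.7, 56.8 and 50.02 TPM (-0.61, SE 0.10, adjusted p = 0.000138). T3M-4 experiment 1 had 50.2 and 52.9 against 12.7, 3.33, 15.05 and 13.2 TPM (-2.29, SE 0.51, adjusted p = 0.0432), a call lost without any 1 of sgKLF5 replicates 1, 3 and 4 and sgRosa replicates 1 and 2 (adjusted p 0.0576 to 0.342). The 3 called comparisons in these lines had no overlap. CFPAC-1 gave -0.49 (SE 0.15, adjusted p = 0.0375), lost without any 1 of sgKLF5 replicates 1, 2 and 3 and sgRosa replicates 1 and 3 (adjusted p 0.085 to 0.13) and after scaling (adjusted p = 0.0681). In AsPC-1 and SUIT-2 the differences were 0.15, 0.29 and 0.070, none called.

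SERPINB8, the furin inhibitor, was called in both directions. It went from 29.3 and 32.9 TPM in sgRosa to 10.5, 8.26, 10.4 and 10.98 TPM in sgKLF5 in T3M-4 experiment 1 (-1.54, SE 0.22, adjusted p = 0.00809, lost without any 1 of sgRosa replicates 1 and 2, adjusted p 0.132 to 0.177). BxPC-3 had 38.4 and 37.6 against 23.9, 23.8, 21.5 and 17.5 TPM in experiment 1 (-0.79, SE 0.14, adjusted p = 0.0038, lost without sgRosa replicate 1, adjusted p 0.0544), but 24.5, 24.6, 28.1 and 23.9 against 33.7, 34.3, 36.2 and 28.5 TPM in experiment 2, where every sgKLF5 library was higher (0.38, SE 0.11, adjusted p = 0.00952). AsPC-1 experiment 3 gave -0.50 (SE 0.12, adjusted p = 0.00448). T3M-4 experiment 2 gave -0.36 (SE 0.13, adjusted p = 0.0417), lost without any 1 of sgKLF5 replicates 1, 3 and 4 and sgRosa replicates 1, 2 and 3 (adjusted p 0.053 to 0.127). SERPINB7 had 22.8 and 22.9 TPM in sgRosa and 10.1, 8.49, 10.6 and 7.83 TPM in sgKLF5 in BxPC-3 experiment 1 (-1.23, SE 0.17, adjusted p = 0.000686) and was not called in the other 3 comparisons, at -0.98, -0.023 and -0.21.

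SERPINB6, the widely expressed member, moved least. The called differences were -0.43 (SE 0.070, adjusted p = 0.00131) in AsPC-1 experiment 1, -0.16 (SE 0.057, adjusted p = 0.0374) in AsPC-1 experiment 3, -0.20 (SE 0.054, adjusted p = 0.00962) in T3M-4 experiment 2 and -0.30 (SE 0.10, adjusted p = 0.0477) in CFPAC-1. The AsPC-1 experiment 3 call was lost without any 1 of sgKLF5 replicates 1, 2 and 3 and sgRosa replicates 1, 2 and 4 (adjusted p 0.0703 to 0.102), and the CFPAC-1 call without any 1 of sgKLF5 replicates 1, 2 and 3 and sgRosa replicates 1, 3 and 4 (adjusted p 0.0862 to 0.151). After scaling, the AsPC-1 experiment 3 and CFPAC-1 values were -0.18 (adjusted p = 0.125) and -0.17 (adjusted p = 0.327). In the other 4 comparisons it lay between -0.11 and 0.040.

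Genes around the serpins of chromosome 18 were counted in the same KLF5 comparisons, without a test against the serpins. Of 8 listed neighbours, 5 to 7 were tested per comparison. None was called by limma in T3M-4 experiment 1 or BxPC-3 experiment 1, where 5.72% and 16.2% of all genes were and 1 neighbour in each had an unadjusted p under 0.05 (VPS4B in T3M-4, TNFRSF11A in BxPC-3). By the same test 2 were called in experiment 2 of each line (of 6 tested in T3M-4 and 5 in BxPC-3), where 34.6% of all genes were. In T3M-4 experiment 2, ZCCHC2 and TNFRSF11A were higher (log2 fold changes 0.35, SE 0.095, adjusted p = 0.00758 and 0.70, SE 0.11, adjusted p = 0.000119), and in BxPC-3 experiment 2, VPS4B and PHLPP1 were lower (-0.20, SE 0.065, adjusted p = 0.0212 and -0.66, SE 0.14, adjusted p = 0.00151). SERPINB10, a further clade B gene of this group, was not called in these 4 comparisons (-0.78, SE 0.23, adjusted p = 0.0892 and -0.14, SE 0.15, adjusted p = 0.473 in T3M-4). Around the chromosome 6 serpins, 8 to 10 of 10 listed neighbours were tested, with 0 or 1 lower and 0 to 3 higher per comparison, beside 3.94% to 34.6% of all genes called.

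**Figure D3:**
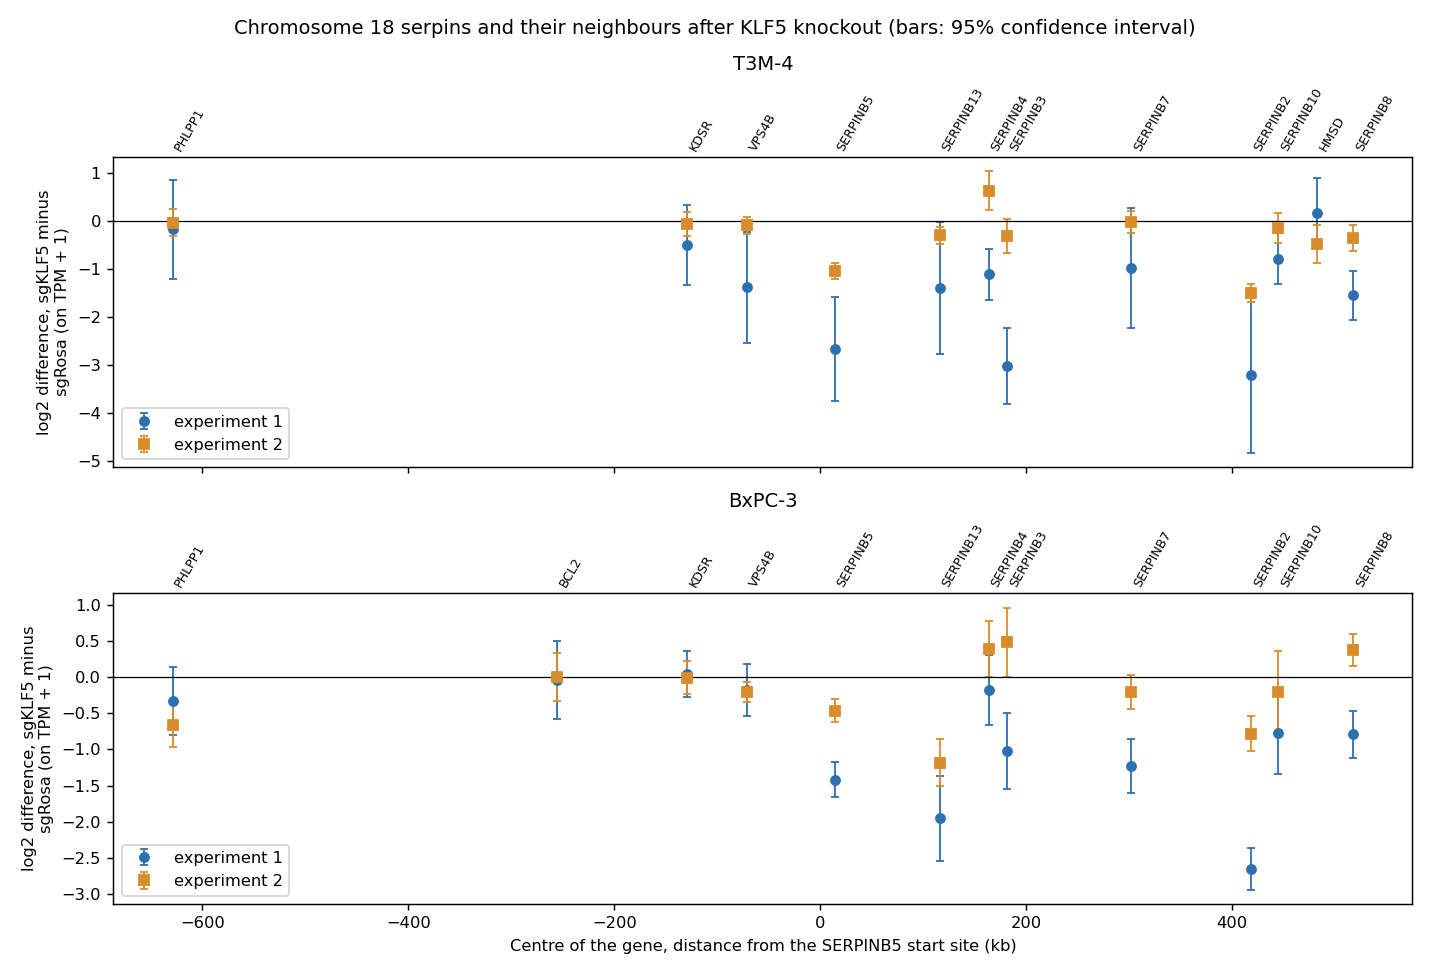
Log2 difference of sgKLF5 minus sgRosa, with its 95% confidence interval, for chromosome 18 serpins and neighbouring genes against the distance of each gene's centre from the SERPINB5 start in kb, in T3M-4 (top) and BxPC-3 (bottom), with circles for experiment 1 and squares for experiment 2. SERPINB5, SERPINB2 and, in BxPC-3, SERPINB13 lie below 0 in both experiments, and SERPINB3 and SERPINB8 differ between experiments. The intervals of the neighbour KDSR include 0 in all 4 comparisons, while VPS4B and PHLPP1 were called lower in BxPC-3 experiment 2. The neighbours ZCCHC2, TNFRSF11A and CDH20, centred at -922.1 kb and farther upstream, are not drawn.

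The size of the KLF5 effect differed between experiments of the same line, with a higher value in experiment 2 for each of the 11 calls. The interaction of knockout and experiment was called for 4 of 10 members in T3M-4 (1.67% of genes called), for 7 of 10 in BxPC-3 (19.8%) and for 0 of 5 in AsPC-1 (4.6% of genes called by limma). In T3M-4 it was 2.701 (SE 0.38, adjusted p = 0.00498) for SERPINB3, 1.74 (SE 0.31, adjusted p = 0.0181) for SERPINB4, 1.19 (SE 0.24, adjusted p = 0.0281) for SERPINB8 and 1.09 (SE 0.18, adjusted p = 0.0111) for SERPINB1, beside a median of 0.33 over all genes. In BxPC-3 it was 1.87 (SE 0.18, adjusted p = 4.81e-06) for SERPINB2, 1.51 (SE 0.37, adjusted p = 0.0102) for SERPINB3, 1.45 (SE 0.17, adjusted p = 3.15e-05) for SERPINB1 and 0.95 (SE 0.13, adjusted p = 8.26e-05) for SERPINB5. SERPINB7, SERPINB8 and SERPINB9 gave 1.02, 1.17 and 0.87. The experiments also differ in their number of control libraries, 2 against 4, and the part of that was not tested. The 4 T3M-4 calls were each lost without sgRosa replicate 1 or without sgRosa replicate 2 of experiment 1, at an adjusted p of 0.0506 for SERPINB3 at the lowest and 0.236 for SERPINB8 at the highest. SERPINB4 was also lost without sgKLF5 replicate 2 of experiment 2 (0.0512), and SERPINB8 without sgKLF5 replicate 1 of experiment 1, any sgKLF5 replicate of experiment 2, or sgRosa replicate 1 or 3 of experiment 2. After scaling, SERPINB1 in T3M-4 was 0.68 (adjusted p = 0.0533). SERPINB5 in T3M-4, not called (1.62, SE 0.47, adjusted p = 0.0917), was 1.202 (adjusted p = 0.000309) without sgKLF5 replicate 2 of experiment 1. In BxPC-3, SERPINB3 was lost without sgRosa replicate 1 of experiment 1 (0.0728). SERPINB9 was lost without any 1 of sgRosa replicates 1 and 2 and sgKLF5 replicates 3 and 4 of experiment 1, or sgRosa replicates 1 and 2 and sgKLF5 replicates 2, 3 and 4 of experiment 2 (0.0706 to 0.141).

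Loss of RUVBL1 or RUVBL2 lowered SERPINB5 in some of the lines, and other members were called in both directions. Of 69 member comparisons with sgRosa, 14 were called lower and 19 higher, or 14 and 15 after median-of-ratios scaling. In AsPC-1 the members called were 3 lower and 2 higher of 5 after sgRUVBL1 in experiment 2 (55.8% of genes called), 2 lower and 1 higher in experiment 3 (51.9%), and 2 lower and 2 higher after sgRUVBL2 (43.2%). T3M-4 had 2 lower and 6 higher of 10 after sgRUVBL1 (60.5%) and 3 lower and 4 higher after sgRUVBL2 (54.5%). Of all genes in T3M-4, 45.9% and 39.3% were called higher. BxPC-3 had 2 lower and 3 higher of 10 after sgRUVBL1 (16%) and 1 higher after sgRUVBL2 (9.76%). In CFPAC-1, limma called 0 of 7 after either (43.8% and 12.1% of genes called), and no member reached an unadjusted p under 0.05. The median over all genes was 0.25 and 0.19 in T3M-4 and 0.16 and 0.13 in AsPC-1 experiment 3, and rescaling brought these to -0.0092, -0.0075, -0.010 and -0.020. The share of higher calls over all genes then went from 75.9% to 46.9% after sgRUVBL1 in T3M-4, and after sgRUVBL2 from 72.1% to 46.6%.

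SERPINB5 fell after sgRUVBL1 in AsPC-1 experiment 2, from 168, 172, 199.9 and 189.5 TPM in sgRosa to 87.8, 97.8, 92.3 and 97.3 TPM (-0.95, SE 0.081, adjusted p = 1.31e-07). In AsPC-1 experiment 3 it had 75.9, 80.6, 97.5 and 90.9 TPM after sgRUVBL1 and 99.9, 125, 111 and 98.1 TPM after sgRUVBL2, beside 121, 113, 109 and 92.5 TPM in sgRosa (-0.33, SE 0.18, adjusted p = 0.129 and -0.0063, SE 0.18, adjusted p = 0.982). In experiment 3 the groups overlapped and neither was called, although sgRUVBL1 was called after scaling (-0.51, adjusted p = 0.0259) and with its own groups alone in the fit (-0.33, adjusted p = 0.0109). T3M-4 had 89.5, 92.1 and 87.5 TPM after sgRUVBL1 and 81.1, 92.4, 83.8 and 83.5 TPM after sgRUVBL2, all below the 138, 141, 113 and 114 TPM of sgRosa (-0.49, SE 0.083, adjusted p = 9.43e-05 and -0.56, SE 0.077, adjusted p = 1.08e-05). BxPC-3 gave -0.064 and 0.0075. CFPAC-1 gave -0.18 and 0.15, or SERPINB5 values of -0.62 (adjusted p = 0.000203) and -0.29 (adjusted p = 0.0922) against sgRosa replicates 1 and 3 alone.

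SERPINB9, the granzyme B inhibitor, had the largest called rise of the 9 comparisons. T3M-4 had 78.5, 82.8, 98.2 and 67.6 TPM in sgRosa, 179, 179.8 and 173 TPM after sgRUVBL1 (1.12, SE 0.11, adjusted p = 2.71e-07) and 133, 176, 143 and 171 TPM after sgRUVBL2 (0.92, SE 0.10, adjusted p = 8.99e-07), with no overlap. In AsPC-1 it rose by 0.30, 0.43 and 0.50, the experiment 2 call being lost without any 1 of sgRosa replicates 1, 2 and 4 and sgRUVBL1 replicates 2, 3 and 4 (adjusted p 0.0644 to 0.0959). SERPINB2, the plasminogen activator inhibitor, was higher in T3M-4, with 564, 670.5 and 551 TPM after sgRUVBL1 and 463, 482, 472 and 487 TPM after sgRUVBL2 beside 399, 403, 315 and 313 TPM in sgRosa (0.74, SE 0.093, adjusted p = 4.39e-06 and 0.42, SE 0.086, adjusted p = 0.000549), which is the opposite direction to its fall after sgKLF5 in the same experiment. After scaling, sgRUVBL2 gave 0.20 (adjusted p = 0.0658) for SERPINB2. SERPINB8 rose in 5 of 9 comparisons, by 0.65 and 0.50 in T3M-4, 0.46 and 0.32 in AsPC-1 and 0.58 in BxPC-3. The AsPC-1 sgRUVBL2 call was lost without any 1 of sgRosa replicates 1, 2 and 4 and sgRUVBL2 replicates 2 and 4 (adjusted p 0.0789 to 0.119) and after scaling (0.17, adjusted p = 0.249).

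SERPINB1, the elastase inhibitor, fell in AsPC-1 and was called higher in T3M-4. AsPC-1 experiment 2 had 122, 133, 139 and 133 TPM in sgRosa and 66.1, 71.1, 73.7 and 78.6 TPM after sgRUVBL1 (-0.86, SE 0.060, adjusted p = 1.95e-08), and in experiment 3 sgRUVBL1 gave -0.82 (SE 0.068, adjusted p = 4.06e-08) and sgRUVBL2 -0.61 (SE 0.068, adjusted p = 3.14e-06). Libraries did not overlap in these 3. In T3M-4 it was higher after sgRUVBL1 (0.39, SE 0.072, adjusted p = 0.000205) and sgRUVBL2 (0.33, SE 0.067, adjusted p = 0.000521). After scaling these were 0.10 (adjusted p = 0.443) and 0.11 (adjusted p = 0.343), so that the T3M-4 rise was not called relative to the median gene. The difference between lines was not tested, since each table was normalized separately. In BxPC-3 sgRUVBL1 gave -0.34 (SE 0.11, adjusted p = 0.0489), lost without any 1 of sgRosa replicates 1, 3 and 4 and sgRUVBL1 replicates 1, 2 and 4 (adjusted p 0.0583 to 0.166).

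SERPINB6 was lower in 6 of 9 comparisons, most after sgRUVBL1 in AsPC-1 experiment 3 (-0.51), while -0.15 after sgRUVBL2 in T3M-4 was the smallest called value and was lost without any 1 of sgRosa replicate 4 and sgRUVBL2 replicates 2 and 3 (adjusted p 0.0838 to 0.0874). In BxPC-3 SERPINB6 gave -0.29 (SE 0.076, adjusted p = 0.0152) after sgRUVBL1, lost without any 1 of sgRUVBL1 replicates 1 and 2 (adjusted p 0.0606) and after scaling (-0.30, adjusted p = 0.0502). SERPINB7 was higher in 3 of 4 comparisons, by 0.28 in T3M-4 and 0.36 and 0.52 in BxPC-3. The T3M-4 value is close to the median of all genes and turned to -0.0075 (adjusted p = 0.961) after rescaling. SERPINB7 was lost without any 1 of sgRosa replicates 3 and 4 and sgRUVBL1 replicates 1 and 2 (adjusted p 0.105 to 0.218) in T3M-4 and without any 1 of sgRosa replicates 1 and 2 and sgRUVBL1 replicates 1, 2 and 4 (adjusted p 0.0752 to 0.121) in BxPC-3 after sgRUVBL1. SERPINB3 was called higher in T3M-4 after sgRUVBL1 (0.45, SE 0.18, adjusted p = 0.0422, lost without any 1 of sgRosa replicates 1 and 2 and sgRUVBL1 replicates 1, 2 and 3, adjusted p 0.0727 to 0.134) and SERPINB4 in BxPC-3 after sgRUVBL1 (0.66, SE 0.18, adjusted p = 0.0222, lost without any 1 of sgRosa replicates 1 and 2 and sgRUVBL1 replicates 1 and 4, adjusted p 0.0556 to 0.0832). SERPINB13 was lower after sgRUVBL2 in T3M-4 (-0.32, SE 0.080, adjusted p = 0.00255).

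**Figure D4:**
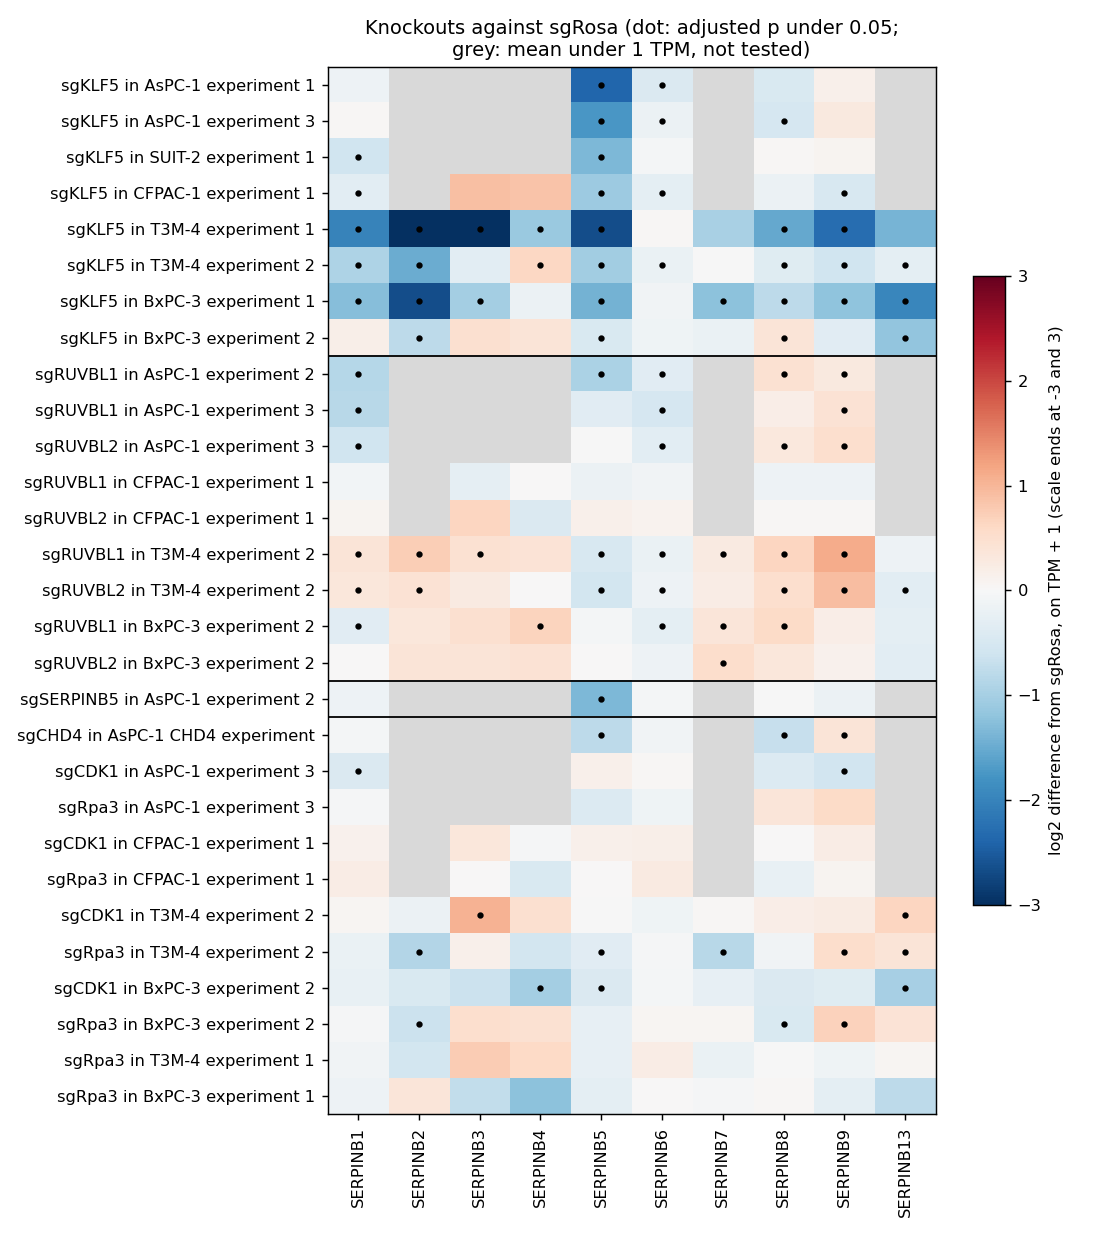
Log2 difference from sgRosa, on TPM + 1, for each member (columns) in each knockout comparison (rows), blue lower and red higher on a scale that ends at -3 and 3, with a dot where the adjusted p is under 0.05 and grey where the mean was under 1 TPM. The SERPINB5 column is blue and dotted in all 8 sgKLF5 rows, and SERPINB9 is red and dotted after sgRUVBL1 and sgRUVBL2 in AsPC-1 and T3M-4.

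The knockouts were compared with each other directly, without the sgRosa libraries they share. SERPINB5 was higher after RUVBL1 or RUVBL2 loss than after KLF5 loss in all 8 such comparisons. The differences were 1.403 (SE 0.18, adjusted p = 2.89e-06) and 1.73 (SE 0.18, adjusted p = 3.16e-07) in AsPC-1 experiment 3 for sgRUVBL1 and sgRUVBL2, 0.56 (SE 0.083, adjusted p = 3.67e-05) and 0.48 (SE 0.077, adjusted p = 7.94e-05) in T3M-4, 0.40 (SE 0.076, adjusted p = 0.000347) and 0.47 (SE 0.082, adjusted p = 0.000212) in BxPC-3, and 0.90 (SE 0.27, adjusted p = 0.0183) and 1.23 (SE 0.32, adjusted p = 0.0166) in CFPAC-1. The CFPAC-1 calls were lost without sgKLF5 replicate 1 (adjusted p 0.0681) for sgRUVBL1 and without any 1 of sgKLF5 replicate 1 and sgRUVBL2 replicates 1 and 2 (adjusted p 0.0539 to 0.101) for sgRUVBL2. SERPINB2 was higher in all 4 comparisons that tested it, by 2.23 and 1.92 in T3M-4 and 1.13 and 1.16 in BxPC-3. SERPINB9 was higher by 1.72 and 1.53 in T3M-4.

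Counted over members, AsPC-1 had 2 lower and 2 higher of 5 after sgRUVBL1 relative to sgKLF5 (58.5% of genes called) and also after sgRUVBL2 (52.1%). CFPAC-1 had 2 lower and 2 higher of 7 after sgRUVBL1 (30.9%), then 1 lower and 3 higher after sgRUVBL2 (15.6%). For T3M-4 the calls were 7 higher of 10 after sgRUVBL1 (45.8%) and 1 lower with 6 higher after sgRUVBL2 (39.7%). BxPC-3 showed 1 lower and 5 higher of 10 for sgRUVBL1 (44%) and 4 higher for sgRUVBL2 (40%). sgKLF5 was also set against the mean of sgCDK1 and sgRpa3. SERPINB5 was lower after sgKLF5 in AsPC-1 (-1.61, SE 0.18, adjusted p = 1.06e-06), CFPAC-1 (-1.17, SE 0.27, adjusted p = 0.00244) and T3M-4 (-0.86, SE 0.077, adjusted p = 1.30e-07), and in BxPC-3 the difference was -0.13 (SE 0.076, adjusted p = 0.16). This comparison called 2 members lower with 1 higher in AsPC-1 (34.7% of genes called), 4 lower with 1 higher in CFPAC-1 (43.7%), 7 lower with 2 higher in T3M-4 (28.4%) and 2 lower with 3 higher in BxPC-3 (46.8%).

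Knockout of SERPINB5 itself left the other members near their control level. SERPINB5 mRNA was at 67.9, 79.8, 76.6 and 60.97 TPM after sgSERPINB5 and 168, 172, 199.9 and 189.5 TPM in sgRosa (-1.35, SE 0.081, adjusted p = 2.21e-07), with no overlap. It was 1 of 4 genes called among 11645 (0.0343%), beside 802 genes at an unadjusted p under 0.05. SERPINB1, SERPINB6, SERPINB8 and SERPINB9 differed by -0.15, -0.064, -0.023 and -0.18, none called.

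Loss of the chromatin remodeller CHD4 in AsPC-1 also lowered SERPINB5, from 138, 134, 132 and 118 TPM in sgRosa to 81.8, 62.8, 74.5 and 83.5 TPM in sgCHD4 (-0.78, SE 0.085, adjusted p = 1.39e-05). SERPINB8 fell by 0.70 on the log2 scale and SERPINB9 rose by 0.39, which made 3 of 5 members called beside 50% of all genes. Over CHD4, CDK1 and RPA3 together, 12 of 89 member comparisons were lower and 6 higher, or 16 and 5 after rescaling.

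The number of members called after knockout of CDK1 or RPA3 differed between lines and experiments. In AsPC-1 experiment 3, sgCDK1 lowered SERPINB1 (-0.43, SE 0.083, adjusted p = 0.00137) and SERPINB9 (-0.57, SE 0.16, adjusted p = 0.0211) with 16.7% of genes called, and sgRpa3 gave 0 of 5 by limma (0.654% of genes called). T3M-4 experiment 2 had 2 of 10 higher after sgCDK1 (16.8%), namely SERPINB3 (1.05, SE 0.21, adjusted p = 0.00295) and SERPINB13 (0.64, SE 0.10, adjusted p = 0.000575). The sgCDK1 libraries of SERPINB3 had 94.9 and 113 TPM beside 43.3, 37.9, 57.8 and 63.5 TPM in sgRosa. After sgRpa3 there were 3 lower and 2 higher (24.6%), among them SERPINB2 with 193 and 195 TPM (-0.87, SE 0.11, adjusted p = 3.88e-05) and SERPINB7 (-0.83, SE 0.13, adjusted p = 0.000357). The other 3 were SERPINB5 (-0.35, SE 0.094, adjusted p = 0.0136, lost without any 1 of sgRpa3 replicates 1 and 2, adjusted p 0.0633 to 0.0972), SERPINB9 (0.52, SE 0.12, adjusted p = 0.0064, lost without sgRpa3 replicate 2, adjusted p 0.079) and SERPINB13 (0.39, SE 0.10, adjusted p = 0.0092, lost without sgRpa3 replicate 2, adjusted p 0.229 and after scaling). BxPC-3 experiment 2 had 3 of 10 lower after sgCDK1 (5.82%), with SERPINB13 at -1.002 (SE 0.19, adjusted p = 0.00358), and 2 lower and 1 higher after sgRpa3 (20.8%), with SERPINB2 at -0.64 (SE 0.14, adjusted p = 0.00477). SERPINB5 and SERPINB4 fell after sgCDK1 in BxPC-3 (-0.42, SE 0.093, adjusted p = 0.00958 and -1.01, SE 0.23, adjusted p = 0.0106). SERPINB13 after sgCDK1 was thus higher in T3M-4 and lower in BxPC-3, a difference that was not tested.

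Several calls that rest on 2 knockout libraries were lost when 1 was left out: SERPINB9 after sgCDK1 in AsPC-1 without any 1 of sgCDK1 replicates 1 and 2 (adjusted p 0.0637 to 0.254), SERPINB1 without sgCDK1 replicate 1 (adjusted p 0.0606), SERPINB3 after sgCDK1 in T3M-4 without sgCDK1 replicate 2 (adjusted p 0.0567), SERPINB13 after sgCDK1 in BxPC-3 without any 1 of sgCDK1 replicates 1 and 2 (adjusted p 0.0507 to 0.0681), SERPINB4 after sgCDK1 in BxPC-3 without any 1 of sgCDK1 replicates 1 and 2 (adjusted p 0.0698 to 0.162), SERPINB5 without any 1 of sgCDK1 replicates 1 and 2 (adjusted p 0.0907 to 0.134), and SERPINB2 after sgRpa3 in BxPC-3 without sgRpa3 replicate 1 (adjusted p 0.0694). SERPINB8 and SERPINB9 after sgRpa3 in BxPC-3 gave -0.45 (SE 0.13, adjusted p = 0.02) and 0.70 (SE 0.22, adjusted p = 0.0301), lost without any 1 of sgRpa3 replicates 1 and 2 (adjusted p 0.0754 to 0.191) for SERPINB8 and without any 1 of sgRosa replicates 1 and 2 and sgRpa3 replicates 1 and 2 (adjusted p 0.0787 to 0.166) for SERPINB9. In CFPAC-1, 0 of 7 members were called by limma after the libraries labelled sgCDK1 (0% of genes called, with 1477 of 12748 at an unadjusted p under 0.05) or sgRpa3 (11.6%). In the experiment 1 tables sgRpa3 gave 0 of 10 in T3M-4 (0% of genes, 189 at an unadjusted p under 0.05) and 0 of 10 in BxPC-3 (0.307%).

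The compound CB-6644 lowered SERPINB5 in AsPC-1, and the fall was smaller with the resistance variants. For the test, the 3 DMSO libraries of a line, 1 of each genotype, were taken as the control group of each CB-6644 group. Over both lines 10 of 45 member comparisons were lower and 6 higher, or 16 and 3 after rescaling, and 7 and 6 against the DMSO library of the same genotype alone. In AsPC-1 the members called were 3 lower and 2 higher of 5 in EV (64.4% of genes called), 1 lower in RUVBL1_A62T (12.7%) and 1 lower and 1 higher in RUVBL2_dF109 (33.4%). T3M-4 had 4 lower of 10 in EV (34.3%), 1 lower and 2 higher in RUVBL1_A62T (50%) and 1 higher in RUVBL2_dF109 (37.6%). The median over all genes was 0.19 in EV AsPC-1 and 0.33 and 0.29 in the T3M-4 variants, and rescaling brought these to -0.058, -0.021 and -0.029. The share of higher calls over all genes went with it from 73.3% to 41.0%, 90.8% to 35.6% and 91.1% to 35.0%.

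In AsPC-1 EV, SERPINB5 was at 74.97, 70.8 and 70.1 TPM in CB-6644 and at 182 TPM in the DMSO library of that genotype. RUVBL1_A62T had 134, 137 and 136 TPM beside 164 TPM in DMSO, and RUVBL2_dF109 had 115, 110.1 and 117 TPM beside 147 TPM. All CB-6644 libraries lay below all 3 DMSO libraries, those of EV lowest. Against pooled DMSO the log2 fold changes were -1.18 (SE 0.066, adjusted p = 5.75e-08) in EV, -0.27 (SE 0.066, adjusted p = 0.0238) in RUVBL1_A62T and -0.52 (SE 0.066, adjusted p = 0.000834) in RUVBL2_dF109. The RUVBL1_A62T call was lost without any 1 of RUVBL1_A62T CB-6644 replicates 1, 2 and 3 (adjusted p 0.0534 to 0.0992). Compared with EV in the compound, SERPINB5 was higher in RUVBL1_A62T (0.91, SE 0.066, adjusted p = 9.61e-07) and in RUVBL2_dF109 (0.66, SE 0.066, adjusted p = 1.14e-05). After subtracting each genotype's own DMSO library, an alternative chosen after the data were seen, these became 1.05 (SE 0.078, adjusted p = 6.17e-05) and 0.96 (SE 0.078, adjusted p = 0.00014).

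In T3M-4 the genotypes already differed in DMSO. SERPINB5 was at 111 TPM in EV, 147 TPM in RUVBL1_A62T and 147 TPM in RUVBL2_dF109, each from 1 library. In CB-6644 EV had 91.7, 92.3 and 104 TPM, RUVBL1_A62T 140.4, 139 and 141 TPM and RUVBL2_dF109 135, 138 and 137 TPM. Only EV was below all DMSO libraries (-0.48, SE 0.10, adjusted p = 0.00443 against pooled DMSO, -0.21, SE 0.077, adjusted p = 0.0637 against its own). With only the groups compared in the fit the pooled value was not called (adjusted p = 0.0648). The variants exceeded EV in the compound by 0.54 and 0.51, after scaling by 0.25 (adjusted p = 0.101) and 0.26 (adjusted p = 0.127), and with own DMSO subtracted by 0.14 (SE 0.11, adjusted p = 0.587) and 0.11 (SE 0.11, adjusted p = 0.639). SERPINB2 differed more between the genotypes in DMSO. EV had 107, 109.6 and 118 TPM in CB-6644 and 108 TPM in its DMSO library, RUVBL1_A62T had 395, 407 and 391 TPM beside 399 TPM, and RUVBL2_dF109 had 349, 365 and 364 TPM beside 318 TPM. The pooled test called it lower in EV (-1.096, SE 0.34, adjusted p = 0.0292, lost without any 1 of RUVBL1_A62T DMSO replicate 1, RUVBL2_dF109 DMSO replicate 1 and EV CB-6644 replicates 1 and 2, adjusted p 0.0614 to 0.116), and against its own DMSO library it differed by 0.043 (SE 0.067, adjusted p = 0.652).

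SERPINB1, the elastase inhibitor, fell in T3M-4 EV on both counts, with 553, 521 and 591 TPM in CB-6644, 841 TPM in its own DMSO library and 1158 and 994 TPM in the others (-0.83, SE 0.10, adjusted p = 0.000135 pooled, -0.60, SE 0.075, adjusted p = 0.000533 own). RUVBL1_A62T had 1037, 1110.2 and 1047 TPM and RUVBL2_dF109 906, 881 and 926 TPM in the compound, and with own DMSO subtracted they exceeded EV by 0.48 (SE 0.11, adjusted p = 0.0477) and 0.47 (SE 0.11, adjusted p = 0.0735). SERPINB13, the cathepsin inhibitor, was not called against pooled DMSO (-0.25, SE 0.15, adjusted p = 0.21) and was lower against its own DMSO library (-0.67, SE 0.10, adjusted p = 0.00114). SERPINB6 was also called lower in T3M-4 EV against pooled DMSO (-0.37). Against the DMSO library of the same genotype it differed by -0.32 in EV, -0.15 in RUVBL1_A62T and -0.27 in RUVBL2_dF109. In the T3M-4 variants the pooled test called SERPINB6 (-0.20, SE 0.067, adjusted p = 0.0298), SERPINB7 (0.47, SE 0.16, adjusted p = 0.0354) and SERPINB8 (0.66, SE 0.19, adjusted p = 0.0187) in RUVBL1_A62T and SERPINB9 (0.56, SE 0.16, adjusted p = 0.0208) in RUVBL2_dF109. The RUVBL1_A62T calls were not made against its own DMSO library (adjusted p = 0.224, 0.607 and 0.218), and SERPINB9 was lost after scaling (0.21, adjusted p = 0.0979).

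In AsPC-1 EV, SERPINB8 and SERPINB9 rose. SERPINB9, the granzyme B inhibitor, had 29.02, 29.8 and 35.5 TPM in CB-6644 and 22.3, 20.6 and 17.2 TPM in the DMSO libraries of EV, RUVBL1_A62T and RUVBL2_dF109 (0.63, SE 0.10, adjusted p = 0.000148 pooled, 0.47, SE 0.11, adjusted p = 0.00611 own). SERPINB8, the furin inhibitor, had 20.8, 18.4 and 20.4 TPM in CB-6644 and 14.4, 11.03 and 8.01 TPM in DMSO (0.81, SE 0.15, adjusted p = 0.000469 pooled, 0.43, SE 0.11, adjusted p = 0.0078 own). No CB-6644 library of EV overlapped DMSO for either gene. The variants also had higher values than their own DMSO library. RUVBL2_dF109 gave 0.58 for SERPINB9 and 0.36 for SERPINB8, and RUVBL1_A62T gave 0.24 and 0.27. With own DMSO subtracted, RUVBL2_dF109 differed from EV by 0.11 for SERPINB9 and -0.070 for SERPINB8, and RUVBL1_A62T by -0.23 and -0.16. SERPINB1 and SERPINB6 were called lower in the same group (-0.14 and -0.14), and these calls were lost without any 1 of RUVBL1_A62T DMSO replicate 1 and EV CB-6644 replicates 2 and 3 (adjusted p 0.0706 to 0.129) for SERPINB1 and without any 1 of RUVBL1_A62T DMSO replicate 1, EV CB-6644 replicates 2 and 3 and EV DMSO replicate 1 (adjusted p 0.0514 to 0.127) for SERPINB6.

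The variants were compared with EV in the compound, where 21 of 30 member comparisons were called, 3 lower and 18 higher, or 4 and 13 after rescaling. AsPC-1 had 2 lower and 3 higher of 5 for RUVBL1_A62T (51.1% of genes called) and 1 lower and 1 higher for RUVBL2_dF109 (47.2%). T3M-4 had 7 of 10 higher for each variant (50.6% and 34.6%). With each genotype's DMSO library subtracted, 5 were called, all higher: SERPINB5 in AsPC-1 for both variants, SERPINB1 for RUVBL1_A62T in T3M-4, and SERPINB13 in T3M-4 for both (0.86, SE 0.14, adjusted p = 0.02 and 0.91, SE 0.14, adjusted p = 0.0363).

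**Figure D5:**
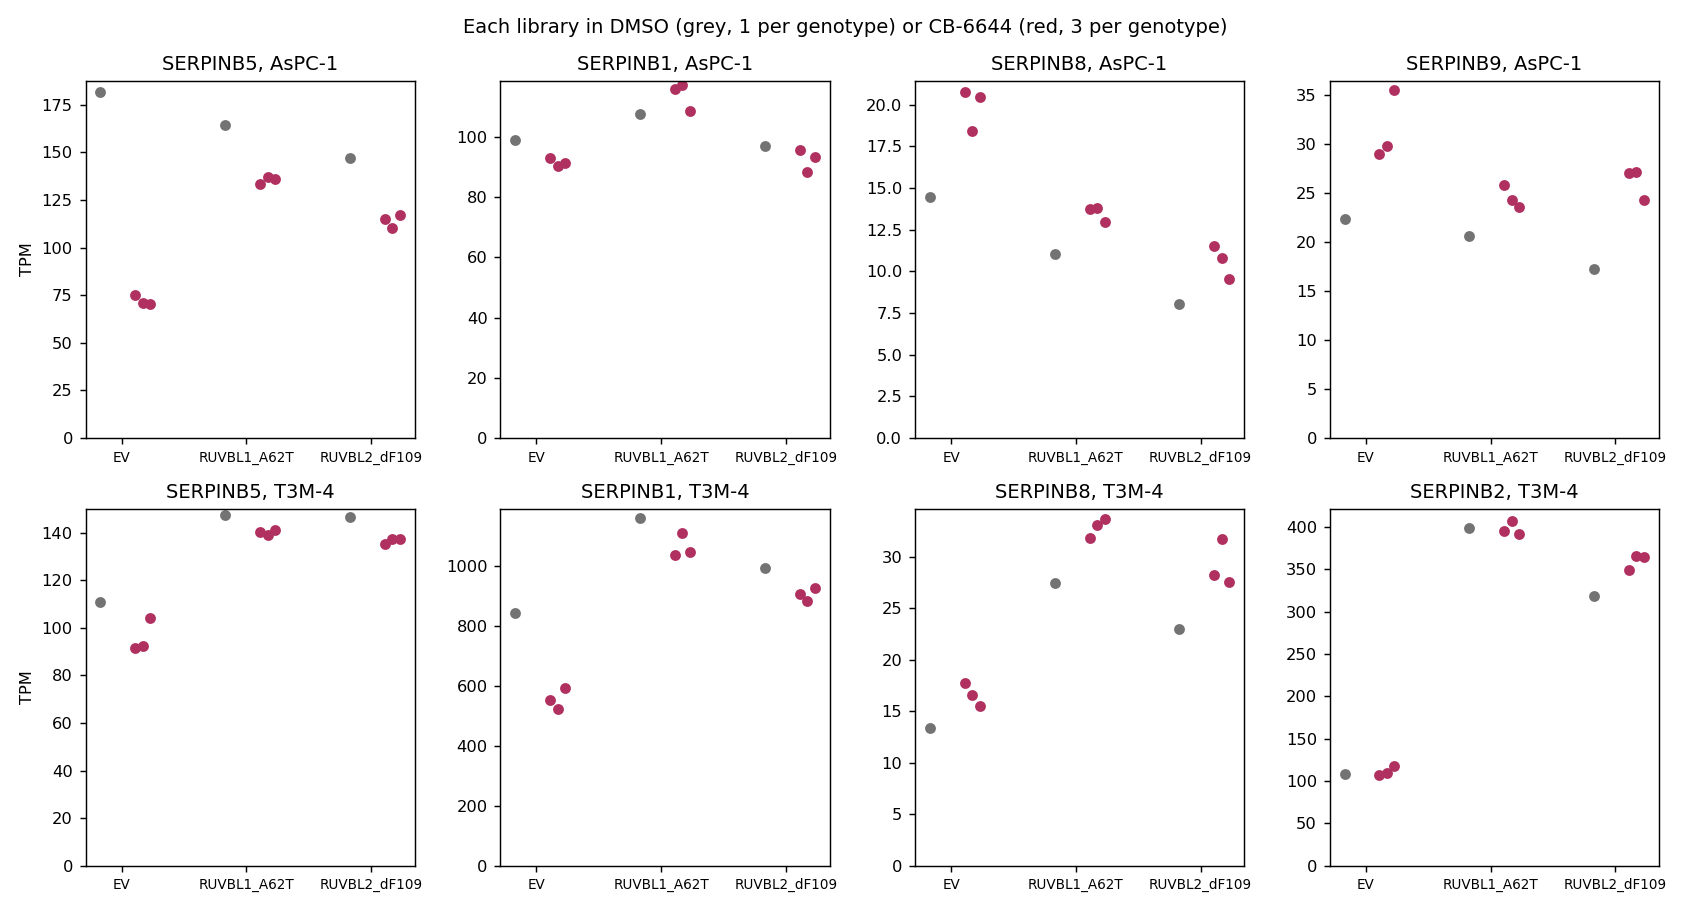
TPM of SERPINB5, SERPINB1, SERPINB8 and SERPINB9 in AsPC-1 (top) and of SERPINB5, SERPINB1, SERPINB8 and SERPINB2 in T3M-4 (bottom), with a grey point for the DMSO library and red points for the 3 CB-6644 libraries of each genotype. The red points of SERPINB5 in AsPC-1 EV lie far below all DMSO points, whereas SERPINB2 in T3M-4 is low in EV in DMSO and CB-6644 alike.

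In the other lines CB-6644 changed 12 of 18 member comparisons, 6 lower and 6 higher, or 10 and 3 after rescaling, where 71.4% to 81.1% of all genes were called. T84 had 4 lower and 1 higher of 6 (71.4%), A375 1 lower and 2 higher of 5 (81.1%), H1048 2 higher of 5 (77.9%) and RH30 1 lower and 1 higher of 2 (77.7%). With 2 to 6 members tested per line, these counts are too small to be set apart from the share of all genes, and the difference was not tested.

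SERPINB5 fell in T84 from 99.6, 106, 93.3 and 111 TPM in DMSO to 76.2, 75.02, 78.2 and 72.6 TPM in CB-6644 (-0.43, SE 0.053, adjusted p = 2.49e-06). SERPINB2 fell there from 30.5, 34.3, 27.5 and 29.3 to 12.6, 13.1, 14.3 and 11.8 TPM (-1.17, SE 0.075, adjusted p = 2.07e-09) and SERPINB1 from 238, 253, 256 and 271 to 181, 179, 179 and 180.4 TPM (-0.50, SE 0.041, adjusted p = 3.73e-08). No groups overlapped in T84 for these 3 genes. In A375, where the gene is close to absent, SERPINB5 went up from 1.03, 0.822, 0.871 and 0.723 to 3.297, 2.75, 3.24 and 3.11 TPM (1.14, SE 0.083, adjusted p = 1.58e-07). H1048 had 4.78, 5.16, 6.23 and 6.34 TPM in DMSO and 6.696, 6.73, 6.48 and 7.05 TPM in CB-6644 (0.23, SE 0.084, adjusted p = 0.0242), a call lost without any 1 of CB-6644 replicate 4 and DMSO replicates 1 and 2 (adjusted p 0.0591 to 0.0777) and after scaling (0.046, adjusted p = 0.63).

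SERPINB8, the furin inhibitor, rose in H1048 from 12.2, 11.2, 8.96 and 11.4 to 22.7, 21.1, 20.6 and 19.2 TPM (0.88, SE 0.082, adjusted p = 9.58e-07) and in RH30 from 15.8, 12.5, 14.1 and 15.1 to 31.7, 34.1, 30.8 and 27.3 TPM (1.06, SE 0.074, adjusted p = 5.10e-08), with no overlap in either line. T84 gave 0.32 (SE 0.086, adjusted p = 0.00363), or 0.15 (adjusted p = 0.161) after scaling, and A375 -0.11 (SE 0.061, adjusted p = 0.123). SERPINB6 fell in 3 of the 4 lines, most in A375, from 91.7, 86.2, 95.1 and 100.1 to 50.9, 51.2, 53.1 and 55.3 TPM (-0.81, SE 0.046, adjusted p = 1.87e-08), and at -0.46 in T84 and -0.21 in RH30. SERPINB7 in A375 gave 0.28 (SE 0.063, adjusted p = 0.00169), or 0.065 (adjusted p = 0.386) after scaling.

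The proteases that these serpins are known to act on, and the urokinase receptor, were followed as a list of 13. After sgKLF5, 8 or 9 were tested per comparison, with 0 to 3 lower and 1 to 6 higher, beside 3.94% to 34.6% of all genes called. The most were in T3M-4 experiment 2, with 1 lower and 6 higher of 8 (34.6% of genes called). PLAT, the tissue plasminogen activator that SERPINB2 inhibits, fell in AsPC-1 experiment 3 from a mean of 638 TPM to 192 TPM (-1.72, SE 0.046, adjusted p = 5.37e-15), and also in AsPC-1 experiment 1 (-1.16, SE 0.12, adjusted p = 4.54e-05) and CFPAC-1 (-1.97, SE 0.40, adjusted p = 0.00585). In the basal-like lines, where SERPINB2 fell, PLAT rose: in T3M-4 experiment 2 from 181 to 569 TPM (1.66, SE 0.072, adjusted p = 1.56e-11), in T3M-4 experiment 1 by 1.61 (SE 0.37, adjusted p = 0.0473) and in BxPC-3 by 1.05 (SE 0.13, adjusted p = 0.000335) and 0.60 (SE 0.10, adjusted p = 0.000104). PLAUR, the receptor of urokinase, fell in AsPC-1 (-0.45, SE 0.056, adjusted p = 0.000213 and -0.57, SE 0.079, adjusted p = 1.50e-05) and in BxPC-3 experiment 1 (-0.98, SE 0.087, adjusted p = 4.26e-05), and rose in BxPC-3 experiment 2 (0.29, SE 0.080, adjusted p = 0.00811) and T3M-4 experiment 2 (0.37, SE 0.070, adjusted p = 0.000453). In T3M-4 experiment 2 FURIN, which SERPINB8 inhibits, rose by 0.79 (SE 0.14, adjusted p = 0.000349) and the cathepsin CTSS by 1.01 (SE 0.13, adjusted p = 1.47e-05).

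In CB-6644 CTSV, a cysteine cathepsin, rose in AsPC-1 EV (0.98, SE 0.095, adjusted p = 3.15e-06), T3M-4 EV (0.78, SE 0.17, adjusted p = 0.00506), T84 (0.81, SE 0.055, adjusted p = 4.53e-09), A375 (2.65, SE 0.062, adjusted p = 3.19e-11), H1048 (1.2998, SE 0.056, adjusted p = 1.62e-09) and RH30 (1.02, SE 0.045, adjusted p = 8.64e-10). The proteases called were 1 lower and 6 higher of 8 in AsPC-1 EV, 1 and 1 in T3M-4 EV, 0 and 7 of 7 in T84 and in A375, 1 and 6 of 7 in H1048 and 1 and 4 of 8 in RH30. Of all genes, 64.4% were called in AsPC-1 EV, 34.3% in T3M-4 EV and 71.4% to 81.1% in the other 4 lines. The share of all called genes that were higher fell on scaling from 73.3% to 41.0% in AsPC-1 EV and from 66.1% to 44.2% in T84. PLAT fell in AsPC-1 EV from 154 to 46.01 TPM (-1.72, SE 0.069, adjusted p = 5.57e-09). The AsPC-1 and T3M-4 values of these proteases are against pooled DMSO, and were not examined against the DMSO library of the same genotype.

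Of 12 serpins of other clades, 6 to 10 were tested after sgKLF5, with 0 or 1 lower and 1 to 5 higher per comparison, beside 3.94% to 34.6% of all genes called. SERPINA1, the plasma elastase inhibitor, rose in T3M-4 (1.88, SE 0.22, adjusted p = 0.00306 and 1.31, SE 0.12, adjusted p = 1.44e-07), SUIT-2 (1.61, SE 0.19, adjusted p = 0.00211) and CFPAC-1 (0.72, SE 0.15, adjusted p = 0.00622). In CB-6644, SERPINI1, or neuroserpin, rose in AsPC-1 EV (1.96, SE 0.12, adjusted p = 1.39e-07), T3M-4 EV (1.53, SE 0.12, adjusted p = 1.43e-05), T84 (1.96, SE 0.10, adjusted p = 1.40e-10), A375 (2.73, SE 0.10, adjusted p = 8.81e-10) and H1048 (1.63, SE 0.10, adjusted p = 2.92e-08). SERPINB10 rose in H1048 (0.33, SE 0.11, adjusted p = 0.0137) and in T3M-4 RUVBL2_dF109 (0.58, SE 0.16, adjusted p = 0.0164). The AsPC-1 and T3M-4 compound values of SERPINI1 and SERPINB10 are likewise against pooled DMSO only. SERPINB12, also of clade B, was tested only in the T3M-4 CB-6644 libraries and was not called there, and SERPINB11 was not analysed here.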

How the data were processed

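Per the labels and the study's methods, poly(A) RNA of 183 libraries was sequenced as single-end reads, pseudo-aligned to hg38 with kallisto and summarised to genes with tximport, and the authors deposited TPM values. The removal of low-abundance transcripts that the methods mention precedes their DESeq2 analysis, which is not used here, and the deposited tables list genes at 0. The 8 tables were normalised separately, so each test stayed within a table. TPM keeps no read depth, so depth is unknown and no counting interval could be given. How reads were divided between SERPINB3 and SERPINB4, which share much of their sequence, is not known.

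All libraries of a line and experiment were fitted together with limma 3.58.1 (empirical Bayes with trend, R 4.3.3) on log2(TPM + 1). A gene entered a fit where its mean over the fitted libraries reached 1 TPM. Two-sided p-values were adjusted by the Benjamini-Hochberg method over every gene of the fit, with a threshold of 0.05. Fold changes on this scale understate the change of low genes. Nothing in the labels says that replicates came from separate cultures, so p-values measure the spread between these libraries only. AsPC-1 and T3M-4 had 1 DMSO library per genotype, and the 3 were used as a single control group. A fit against the DMSO library of the same genotype assumed that a lone library varies like the CB-6644 groups.

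Members, gene lists and markers were chosen with earlier results of these data known. All 10 members are described. Genes of the other lists (proteases, other serpins, SERPINB10 and SERPINB12, and neighbours on chromosomes 18 and 6) were counted, and those named passed the threshold in a KLF5 or CB-6644 comparison unless said otherwise. The fit was tested on simulated data in which 200 genes carried a log2 change of 1. It called 0% of them for sgKLF5 in T3M-4 experiment 1, 97% in T3M-4 experiment 2, 37.5% in SUIT-2 and 84.5% for CB-6644 in EV T3M-4. Promoters are from RefSeq on GRCh38.p14, in which 10 of 10 members were matched. Results were recomputed with a pseudocount of 0.1, without the filter, with a filter at 5 TPM, with libraries scaled by the median of ratios, with a replicate block, with SERPINB3 and SERPINB4 summed, on the compared groups alone, with other choices of DMSO or sgRosa control, with the 4 non-pancreatic lines in one fit, and without each library in turn. Pairing of replicate numbers was checked by correlating deviations from group means, with a minimum of 0.1 for every pair.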

Additional observations from a re-analysis of the deposited data

Results flagged for a closer look

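In 191 combinations of a member and a group of 4 to 10 libraries, the highest or lowest library was tested for its distance from the others. Such a test picks about 5% of combinations by chance, and 12 stood apart, a number close to that share. The tests are not independent, because a library can stand apart for several members. In CFPAC-1, sgRosa replicate 2 stood apart for 3 members: SERPINB3 was at 4.39 TPM against 1.12 TPM in the nearest sgRosa library, SERPINB6 at 158 against 215 TPM, and SERPINB8 at 14.5 against 16.4 TPM. In SUIT-2, sgRosa replicate 1 was the lowest of its group for SERPINB5, or maspin, at 38.6 TPM with the next at 67.02 TPM, and for SERPINB9, the granzyme B inhibitor, at 12.2 with the next at 22.5 TPM. In T3M-4 experiment 1, sgKLF5 replicate 2 held 24.6 TPM of SERPINB2, the inhibitor of urokinase, where the next library held 149 TPM, and 132 TPM of SERPINB6, where the next held 84.7 TPM. The remaining 5 were smaller gaps. SERPINB6 was at 118 TPM in AsPC-1 sgRosa replicate 1 of the CHD4 experiment with the next at 114 TPM, and at 129.8 TPM in T3M-4 experiment 2 sgKLF5 replicate 1 with the next at 139.9 TPM. SERPINB5 was at 39.4 TPM in AsPC-1 experiment 1 sgKLF5 replicate 6 with the next at 28.9 TPM. SERPINB1 was at 74.5 TPM in AsPC-1 experiment 3 sgRUVBL2 replicate 2 with the next at 79.8 TPM, and SERPINB9 at 8.32 TPM in T84 CB-6644 replicate 1 with the next at 7.46 TPM.

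The effect of sgKLF5 differed between experiments of the same line in 11 of 25 combinations of member and line, all in T3M-4 or BxPC-3, by limma's interaction of knockout and experiment. On the log2(TPM + 1) scale, the change in T3M-4 experiment 2 was higher (less negative or more positive) than in experiment 1 by 1.09 for SERPINB1, by 2.70 for SERPINB3, by 1.74 for SERPINB4 and by 1.19 for SERPINB8. In BxPC-3 it was higher in experiment 2 by 1.45 for SERPINB1, 1.87 for SERPINB2, 1.51 for SERPINB3, 0.95 for SERPINB5, 1.02 for SERPINB7, 1.17 for SERPINB8 and 0.87 for SERPINB9. Each of the 11 differences had the same direction. In both lines experiment 1 had 2 sgRosa libraries and experiment 2 had 4, and what else separated the experiments is not in the labels.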

How the results depend on the processing

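Single results were followed for each member called in a comparison and for SERPINB5 in every comparison, so calls gained by other members show only in the counts of called members. Of these single results, 225 of 231 kept their direction and their side of the threshold with a pseudocount of 0.1, 214 of 231 without the filter, 218 of 221 with a filter at 5 TPM, 210 of 210 with SERPINB3 and SERPINB4 summed, 178 of 206 on the compared groups alone, 197 of 231 after median-of-ratios scaling, and 1436 of 1722 when 1 library was left out. Where one changed, the cause was not tested. Across libraries left out in turn, the count of members called ran from 32 to 40 for KLF5 knockout, 29 to 37 for RUVBL1 and RUVBL2 knockout, 15 to 19 for CHD4, CDK1 and RPA3 knockout, 12 to 22 for CB-6644 in AsPC-1 and T3M-4, 17 to 22 for the resistance variants, 11 to 13 for the non-pancreatic lines and 57 to 64 for knockouts compared, and it was 1 throughout for SERPINB5 knockout. For experiments compared it ran from 7, without either sgRosa library of T3M-4 experiment 1, to 15. On the compared groups alone, CB-6644 in AsPC-1 and T3M-4 gave 8 called members (4 lower, 4 higher) in place of 16; experiments compared already held those groups alone. The 4 non-pancreatic lines in one fit gave 19 (7 lower, 12 higher) in place of 12. After scaling, the split of called members moved from 6 lower and 6 higher to 10 and 3 in the non-pancreatic lines, from 10 and 6 to 16 and 3 for CB-6644 in AsPC-1 and T3M-4, and from 12 and 6 to 16 and 5 for CHD4, CDK1 and RPA3 knockout.

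The values that changed direction were log2 differences mostly near 0. After scaling, SERPINB5 was at 0.038 for sgRUVBL1 and -0.074 for sgRpa3 in CFPAC-1 experiment 1, and at -0.32 for CB-6644 in both RUVBL1_A62T T3M-4 and RUVBL2_dF109 T3M-4; SERPINB7 was at -0.0075 for sgRUVBL1 in T3M-4 experiment 2; and SERPINB6 was at -0.11 for RUVBL1_A62T and -0.034 for RUVBL2_dF109 against EV in T3M-4. Against the DMSO library of the same genotype alone, SERPINB2 was at 0.043 for CB-6644 in EV T3M-4, and SERPINB5 at -0.071 in RUVBL1_A62T T3M-4 and -0.10 in RUVBL2_dF109 T3M-4. The remaining alternatives were chosen after seeing the data. With each genotype's own DMSO library subtracted, the resistance variants gave 5 called members in place of 21, and RUVBL1_A62T against EV in T3M-4 stood at -0.047 for SERPINB2, -0.016 for SERPINB7, -0.040 for SERPINB8 and -0.19 for SERPINB9. With sgRosa replicates 1 and 3 alone in CFPAC-1, SERPINB5 stood at -0.29 for sgRUVBL2, -0.28 for sgCDK1 and -0.42 for sgRpa3. Leaving out 1 library took SERPINB5 across 0 in 8 comparisons: its range was -0.24 to 0.31 for sgRUVBL2, -0.24 to 0.32 for sgCDK1 and -0.37 to 0.19 for sgRpa3 in CFPAC-1 experiment 1 (the lowest without sgRosa replicate 2), -0.082 to 0.048 for sgRUVBL2 in AsPC-1 experiment 3, -0.094 to 0.052 for sgCDK1 in T3M-4 experiment 2, -0.042 to 0.10 for sgRUVBL2 in BxPC-3 experiment 2, and -0.067 to 0.14 and -0.10 to 0.09997 for CB-6644 in RUVBL1_A62T T3M-4 and RUVBL2_dF109 T3M-4 (the lowest without EV DMSO).

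With a replicate block, experiments compared gave 17 called members in place of 11, and the other counts were 38 for KLF5 knockout, 30 for RUVBL1 and RUVBL2 knockout, 1 for SERPINB5 knockout, 21 for CHD4, CDK1 and RPA3 knockout, 23 for the resistance variants, 12 for the non-pancreatic lines and 61 for knockouts compared. Libraries with the same number shared only that number: correlations of their deviations lay between -0.459 and 0.371, and no comparison had every pair over 0.1. For CB-6644 against DMSO in AsPC-1 and T3M-4, no fit with the block was made. No paired analysis was possible because the DMSO libraries of that comparison carry no replicate numbers shared with the CB-6644 libraries.

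Depth is unknown, which limits what can be said of low members: SERPINB13, SERPINB4 and SERPINB7 were below the filter in several lines.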
